A study of Mus musculus with 4 samples.

Results

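The Toll-like receptors Tlr1, Tlr2, Tlr3, Tlr4, Tlr5, Tlr6, Tlr7, Tlr8, Tlr9 and Tlr13 are described here in cells sorted from liver and labelled macrophages, 10 genes of the 23337 gene names in the deposited tables. Each was found by its name, which occurs once in every table. RNA was sequenced from liver macrophages that the labels call KCs, the usual short form of Kupffer cells, which reside in the sinusoids. They were separated by yellow fluorescent protein (YFP) from Lyz2cre-RosaYFP mice aged 6 to 8 weeks, of both sexes. There are 2 YFP+ and 2 YFP- libraries. In these mice Cre recombinase is made from Lyz2, the lysozyme gene of macrophages and granulocytes, and switches on YFP at the Rosa locus. The labels give YFP+ and YFP- as the genotype of the libraries and name this 1 reporter line for both, and YFP marks a cell in which, or in a precursor of which, Cre was active. Each group has 1 library whose title begins with M and 1 whose title begins with FM; the labels do not explain these starts, nor how many animals each library holds, so what the spread between libraries of a group measures, technical or biological, is not known.

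Toll-like receptors sense conserved parts of microbes with an outer repeat domain and signal through an inner TIR domain. Tlr1, Tlr2, Tlr4, Tlr5 and Tlr6 act mainly at the cell surface, where they read lipoproteins, lipopolysaccharide and flagellin. Tlr3, Tlr7, Tlr8, Tlr9 and Tlr13 act in endosomes, where they read nucleic acids. Kupffer cells meet bacterial products that reach the liver through the portal vein.

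Values are TPM (a level per length of transcript whose sum is 1000000 in every library). Differences are YFP+ minus YFP- in log2(TPM + 1), which understates the change of low genes, and each is tested with limma across 12251 genes that reached 1 TPM in at least 2 libraries. The libraries stand apart in ways that bear on every difference below. Taking every tested gene, the median difference stood at -1.73; it was -1.01 for the M pair and -2.48 for the FM pair. Genes at 1 TPM or more numbered 10302 and 7386 in the YFP+ M and FM libraries, against 12434 and 12829 in the YFP- M and FM libraries. Mean coverage at 1 FPKM, the measure of depth at hand, was 4.81 and 2.60 in the YFP+ libraries, against 9.19 and 2.59 in the YFP- libraries. Of all tested genes 79.7% were lower in both YFP+ libraries than in both YFP- libraries. Genes of microglia, the macrophages of the brain, were lower in both for 12 of 12 listed genes. The microglia genes summed to 157 to 1442 TPM in YFP+ and 21049.9 to 23216 TPM in YFP- libraries. A list of 14 Kupffer cell genes summed to 33788 to 35619 TPM in YFP+ and 6535 to 13708 TPM in YFP- libraries, and a list of 12 pan-macrophage genes to 43160 to 59786 TPM in YFP+ and 23815 to 28013 TPM in YFP- libraries. Of those 12 genes 5 were higher and 4 lower in both YFP+ libraries, Csf1r, Mertk, Fcgr1 and Itgam being the lower ones. Of the 14 Kupffer cell genes 9 were higher and 0 lower in both YFP+ libraries, where 2.5% of all tested genes were higher. The rest, Cdh5, Spic, Cd163, C6 and Slc40a1, overlapped between the groups and were highest in YFP- FM. The markers thus go against the Kupffer cell name for the YFP- libraries, where the microglia list summed to more than the Kupffer cell list in both. The microglia gene Tmem119, named after its values were seen, was at 92.9 and 2.92 TPM in YFP+ M and FM, against 1278 and 2501 TPM in YFP- M and FM, while the Kupffer cell gene Clec4f, named in the same way, was at 9615 and 6962 TPM in YFP+ M and FM, against 1006 and 4398 TPM in YFP- M and FM. The part of these other genes in the receptor differences was not tested, and in bulk RNA fewer cells of a type and less RNA per cell cannot be told apart.

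Receptor transcripts were lower in YFP+ libraries. The 10 receptors together summed to 149 and 46.1 TPM in the YFP+ M and FM libraries, against 334 and 905 TPM in the YFP- M and FM libraries. Of the 10 receptors 9 lay lower in both YFP+ libraries than in both YFP- libraries; Tlr8 was the exception. Limma with Benjamini-Hochberg adjustment called 6 of 10 receptors lower and 0 higher, where 39.5% of all tested genes were called lower and 0.522% higher. Tlr5 and Tlr9 count among these 6 and among the 9 without overlap. Both passed the filter on low values only through the YFP- libraries, which fixed their direction. At an unadjusted p under 0.05 the counts were 9 lower and 0 higher, where 52.4% of all tested genes were lower and 0.718% higher. The median difference of the receptors was -2.64 against -1.73 for all tested genes. Non-overlap was found in the lower direction for 79.7% and in the higher direction for 2.5% of all tested genes, so 9 of 10 receptors is close to that background. Most calls were lost when the libraries were rescaled. Limma gave 0 lower and 0 higher receptors after quantile normalization (background 1.67% lower and 1.21% higher), 0 and 0 after cyclic loess (0.327% lower and 0.531% higher), and 1 lower and 0 higher after median-ratio scaling (5.9% lower and 5.62% higher). At an unadjusted p under 0.05 each of these 3 scalings gave 4 lower and 0 higher receptors. Tlr5, which passed the filter only through the YFP- libraries, was the 1 call and was among the 4 in each scaling. The shares of all tested genes at that threshold were 10.5% lower and 10% higher after quantile normalization, 8.77% lower and 10.8% higher after loess, and 17.2% lower and 15.1% higher after median-ratio scaling. Calls also turned on single libraries, in fits where the lone library of a group is assumed to vary like the others. With the tested genes held fixed, Tlr5 was called in each such fit and Tlr9 in some. The filter on low values fixed the direction of both. Leaving out YFP+ M gave 10 receptors called lower (background 67.5%), leaving out YFP+ FM gave 1 (7.06%), leaving out YFP- M gave 3 (11.5%) and leaving out YFP- FM gave 1 (7.56%). When the filter on low values was applied anew, limma called 0 of 8 tested receptors if YFP- M was dropped (background 0.253%; 3 at an unadjusted p under 0.05, background 7.65%) and 0 of 8 if YFP- FM was dropped (0.234%; 0 unadjusted, background 3.71%).

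**Figure D1:**
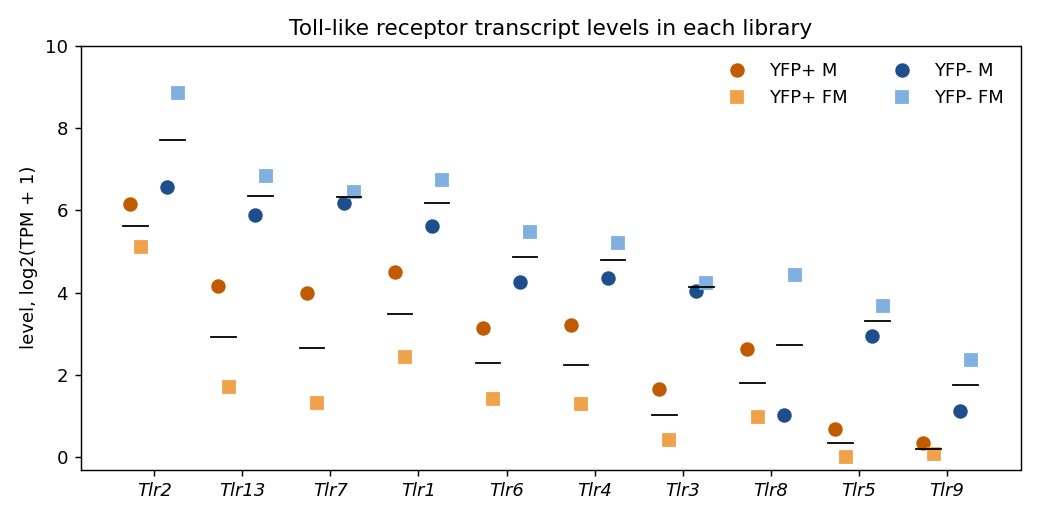
Level of each receptor as log2(TPM + 1) in the 2 YFP+ (orange) and the 2 YFP- (blue) libraries, circles for M and squares for FM titles, with a black line at the mean of each pair. Tlr2 stands at the top in every library, and Tlr8 is the receptor whose groups overlap, since YFP- M lies at 1.04 TPM.

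The order of levels was led by Tlr2 in every library. In YFP+ libraries the mean levels ran from Tlr2 at 52.0 ± 26.3 TPM through Tlr1 at 13.2 ± 12.3, Tlr13 at 9.52 ± 10.3, Tlr7 at 8.21 ± 9.50, Tlr4 at 4.86 ± 4.81, Tlr6 at 4.77 ± 4.40, Tlr8 at 3.07 ± 2.96, Tlr3 at 1.24 ± 1.29 and Tlr5 at 0.624 and 0 TPM to Tlr9 at 0.164 ± 0.144 TPM (mean ± SD, n = 2). In YFP- libraries they ran from Tlr2 at 279 ± 262 TPM through Tlr13 at 85.9 ± 39.1, Tlr7 at 79.2 ± 9.90, Tlr1 at 77.2 ± 41.0, Tlr6 at 30.9 ± 18.0, Tlr4 at 27.8 ± 11.8, Tlr3 at 16.7 ± 1.81, Tlr8 at 10.7 ± 13.7 and Tlr5 at 9.20 ± 3.58 to Tlr9 at 2.68 ± 2.13 TPM (mean ± SD, n = 2). Most neighbours in these orders do not differ beyond their spread. In YFP+ libraries the ranges of neighbours separated at 1 place, between Tlr2 and Tlr1. In YFP- libraries they separated between Tlr1 and Tlr6, Tlr4 and Tlr3, and Tlr5 and Tlr9.

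Tlr2, the shared partner of lipoprotein receptors (chromosome 3, 83836272 to 83841608 in GRCm38, the build of all positions here), was at 70.6 and 33.4 TPM in the YFP+ M and FM libraries, against 93.8 and 465 TPM in the YFP- M and FM libraries. The YFP- FM library stood far above the other 3, and the M libraries lay close together. Tlr2 did not pass (log2 difference -2.08, SE 0.95, limma adjusted p = 0.0630), and its sign turned under median-ratio scaling (0.19). Over the 4 libraries, the tested genes whose centred log2(TPM + 1) values were most like those of Tlr2 were Gpr97, Lrrc8c and Srebf2, with root mean square differences of 0.035, 0.046 and 0.060. With so few libraries 229 tested genes lay within 0.3 of Tlr2.

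Tlr1 and Tlr6 pair with Tlr2 to read triacylated and diacylated lipoproteins. They are neighbours on chromosome 5 (64924834 to 64932699 and 64953095 to 64960034), 20395 bases apart and on the same strand. Tlr1 was at 21.9 and 4.44 TPM in the YFP+ M and FM libraries, against 48.2 and 106 TPM in the YFP- M and FM libraries (log2 difference -2.70, SE 1.07, limma adjusted p = 0.0349). Tlr6 was at 7.88 and 1.66 TPM in YFP+ M and FM, against 18.1 and 43.6 TPM in YFP- M and FM (-2.59, SE 1.15, limma adjusted p = 0.0567). Both had their lowest value in YFP+ FM and their highest in YFP- FM, with no overlap between the groups. Tlr1 fell and Tlr6 did not pass, and the ratio between them was similar in the 4 libraries. Tlr1 stood at 2.77 and 2.67 times the TPM of Tlr6 in YFP+ M and FM, against 2.66 and 2.44 times in YFP- M and FM. How the authors' counting split reads between the pair is uncertain, because 15.3% of all 50-base words in the longest-coding GENCODE transcript of Tlr1 also occur in Tlr6, and 12.5% of those of Tlr6 in Tlr1. No other pair of the receptors shared such a word. The longest identical run, 229 bases within the coding sequence, is shown because reads inside it cannot be told apart. It lies at chr5:64925537-64925765 in Tlr1 (coding bases 1468 to 1696) and chr5:64953828-64954056 in Tlr6 (coding bases 1507 to 1735), GRCm38, minus strand, all in lower case since no base is singled out.
Tlr1 and Tlr6 shared run: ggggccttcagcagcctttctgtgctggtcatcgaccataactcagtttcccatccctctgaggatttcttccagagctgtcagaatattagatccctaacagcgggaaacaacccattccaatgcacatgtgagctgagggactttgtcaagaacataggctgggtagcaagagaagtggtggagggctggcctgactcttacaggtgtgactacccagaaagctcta

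Tlr4, the receptor for lipopolysaccharide (chromosome 4, 66827811 to 66842796), was at 8.26 and 1.46 TPM in the YFP+ M and FM libraries, against 19.5 and 36.1 TPM in the YFP- M and FM libraries. The groups did not overlap, but the difference did not pass (log2 difference -2.53, SE 1.15, limma adjusted p = 0.0618). Tlr5, the flagellin receptor (chromosome 1, 182954788 to 182976044), was at 0.624 TPM in YFP+ M and was listed at 0 in YFP+ FM, against 6.67 and 11.7 TPM in YFP- M and FM. Mean coverage of Tlr5 was 2.02 in YFP+ M and 0 in YFP+ FM, against 36.3 and 13.2 in YFP- M and FM. It was called lower on the deposited values (-2.95, SE 0.72, limma adjusted p = 0.000793) and under median-ratio scaling (adjusted p = 0.0109). It no longer passed the filter when that was applied anew without either YFP- library. Quantile normalization (adjusted p = 0.0612) and cyclic loess (0.122) ended it. Since Tlr5 passed the filter on low values only through the YFP- libraries, it was bound to be higher there among tested genes.

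Tlr7, an endosomal receptor of single-stranded RNA (chromosome X, 167304931 to 167330528), was at 14.9 and 1.49 TPM in the YFP+ M and FM libraries, against 72.2 and 86.2 TPM in the YFP- M and FM libraries. Its YFP- libraries lay close together and its YFP+ libraries far apart. It fell (log2 difference -3.66, SE 1.10, limma adjusted p = 0.00578), with -1.93 relative to the median gene. Tlr13, which reads bacterial ribosomal RNA in mice (chromosome X, 106143275 to 106160493), was at 16.8 and 2.25 TPM in YFP+ M and FM, against 58.2 and 113 TPM in YFP- M and FM (-3.44, SE 1.09, limma adjusted p = 0.00904). Relative to the median gene its difference was -1.70. Quantile normalization left -1.87 for Tlr7 and -1.67 for Tlr13, with limma adjusted p of 0.120 and 0.154. The direction of both held under all 3 scalings, without a call.

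Tlr3, the double-stranded RNA receptor (chromosome 8, 45395665 to 45410539), was at 2.15 and 0.336 TPM in the YFP+ M and FM libraries, against 15.4 and 18.0 TPM in the YFP- M and FM libraries (log2 difference -3.10, SE 1.02, limma adjusted p = 0.0124). Its difference from the median gene was nearly the same within M (-1.37) and within FM (-1.35). With Tlr3 at 0.336 TPM in YFP+ FM, log2(TPM + 1) limits how negative the FM value can be. Tlr9, the receptor of unmethylated CpG DNA (chromosome 9, 106222598 to 106226876), was the lowest receptor by mean in both groups, at 0.266 and 0.0624 TPM in YFP+ M and FM, against 1.17 and 4.18 TPM in YFP- M and FM. It was called lower (-1.53, SE 0.38, limma adjusted p = 0.00106), although relative to the median gene it lay at 0.20, a sign that turned with a pseudocount of 0.1 (-0.95) and without a filter (-0.33). Like Tlr5, it passed the filter only through the YFP- libraries. With mean coverage of 0.864 and 0.131 in YFP+ M and FM, against 6.39 and 4.69 in YFP- M and FM, Tlr9 rests on few reads in the YFP+ libraries.

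Tlr8, the neighbour of Tlr7 on chromosome X (167242732 to 167263788, 41142 bases away), was the receptor whose groups overlapped. It was at 5.17 and 0.984 TPM in the YFP+ M and FM libraries, against 1.04 and 20.4 TPM in the YFP- M and FM libraries. YFP- FM was the highest library and YFP+ FM the lowest, while YFP- M lay beside YFP+ FM. The difference did not pass (log2 difference -0.92, SE 0.91, limma adjusted p = 0.382), and its sign turned under quantile normalization (0.98), median-ratio scaling (0.72) and cyclic loess (1.15).

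**Figure D2:**
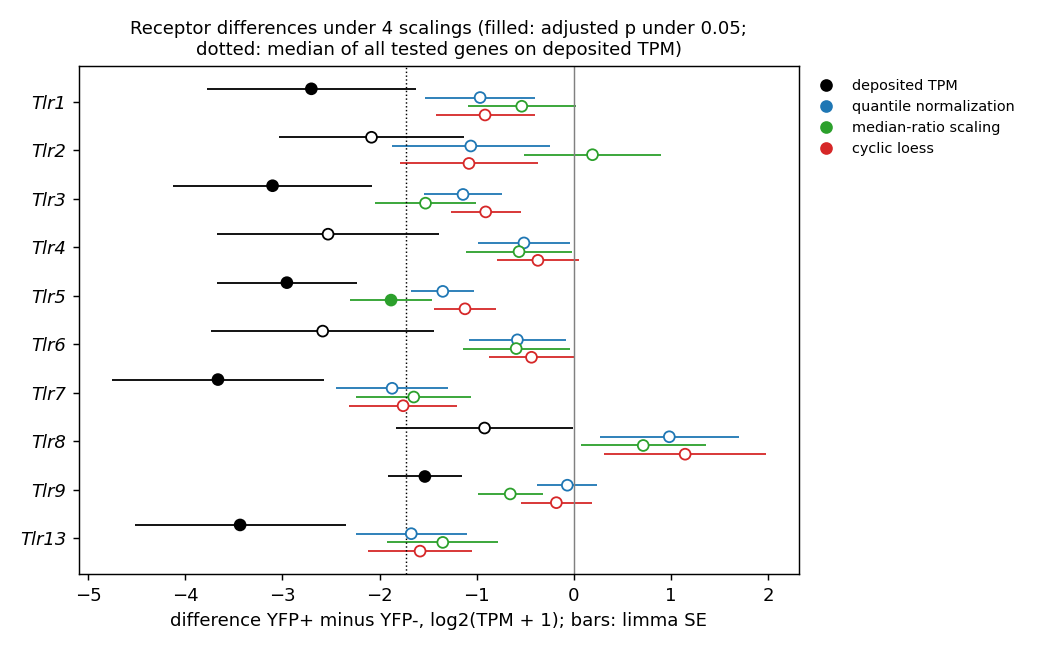
Difference YFP+ minus YFP- in log2(TPM + 1) with the limma standard error for each receptor on the deposited values and under 3 rescalings; filled points had an adjusted p under 0.05, and the dotted line marks the median of all tested genes on the deposited values (-1.73). The 6 calls on the deposited values become 1, Tlr5 under median-ratio scaling. Tlr5 passed the filter on low values only through the YFP- libraries.

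For each of the 10 receptors the FM difference was more negative than the M difference. In the M libraries the log2 difference ranged from -2.38 for Tlr3 to 1.59 for Tlr8, and in the FM libraries from -5.14 for Tlr13 to -2.29 for Tlr9. Relative to the median gene of the same start, Tlr2 was at 0.60 in the M and -1.28 in the FM libraries, and Tlr7 at -1.19 in M and -2.65 in FM. Tlr1, Tlr4 and Tlr6 lay within 0.14 of the median gene in the M libraries (-0.09, -0.14 and -0.10) and below it in the FM libraries (-1.82, -1.44 and -1.59). Tlr3 and Tlr5 stayed about as far below it in both, with -1.23 in M and -1.19 in FM for Tlr5. In YFP+ FM, however, Tlr3 was at 0.336 TPM and Tlr5 was listed at 0. At such levels log2(TPM + 1) limits how negative the FM difference can be, so this likeness may come from the floor. With 1 library per group and start, these values have no test.

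**Figure D3:**
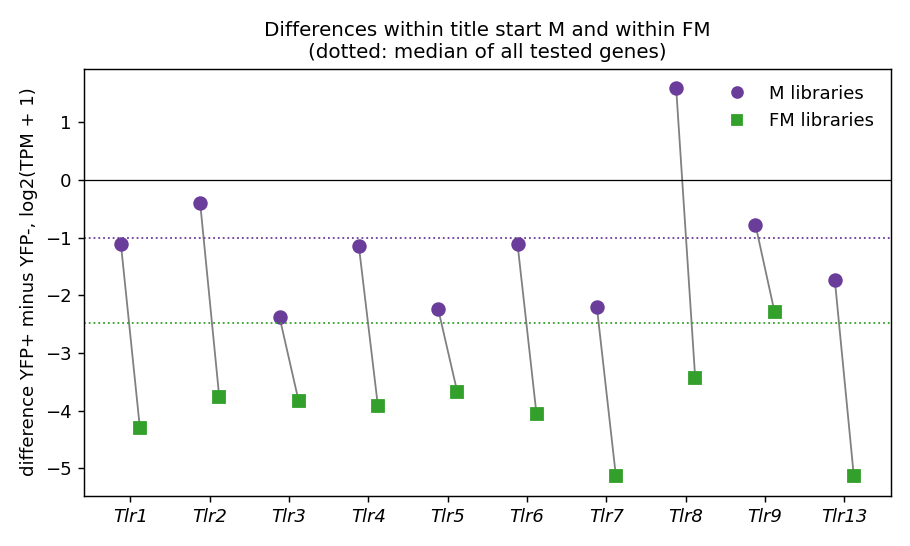
Difference YFP+ minus YFP- in log2(TPM + 1) for each receptor between the M libraries (purple circles) and between the FM libraries (green squares), 1 library per group each; dotted lines mark the medians of all tested genes, -1.01 for M and -2.48 for FM. Tlr8 is the receptor with opposite signs, 1.59 in M and -3.43 in FM.

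The make-up of the receptor transcripts can be read within a library, where scaling between libraries plays no part. Tlr2 made up 47.5% and 72.5% of the summed receptor TPM in the YFP+ M and FM libraries, against 28.1% and 51.4% in the YFP- M and FM libraries. These shares overlap between the groups. The surface receptors together took 73.5% and 88.9% in YFP+ M and FM, against 55.7% and 73.2% in YFP- M and FM, and the endosomal receptors the rest. The gap between the closest libraries of the 2 groups was thus small. Tlr3 took 1.45% and 0.729% in YFP+ M and FM, against 4.60% and 1.98% in YFP- M and FM. Tlr13 took 11.3% and 4.89% in YFP+ M and FM, against 17.4% and 12.5% in YFP- M and FM. Both of these shares were lower in each YFP+ library than in each YFP- library, whereas the share of Tlr7 overlapped, at 10.1% and 3.24% in YFP+ and 21.6% and 9.52% in YFP- M and FM. No share was tested, since the smallest p that an exact permutation test (two-sided) allows with this number of libraries is 0.333.

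**Figure D4:**
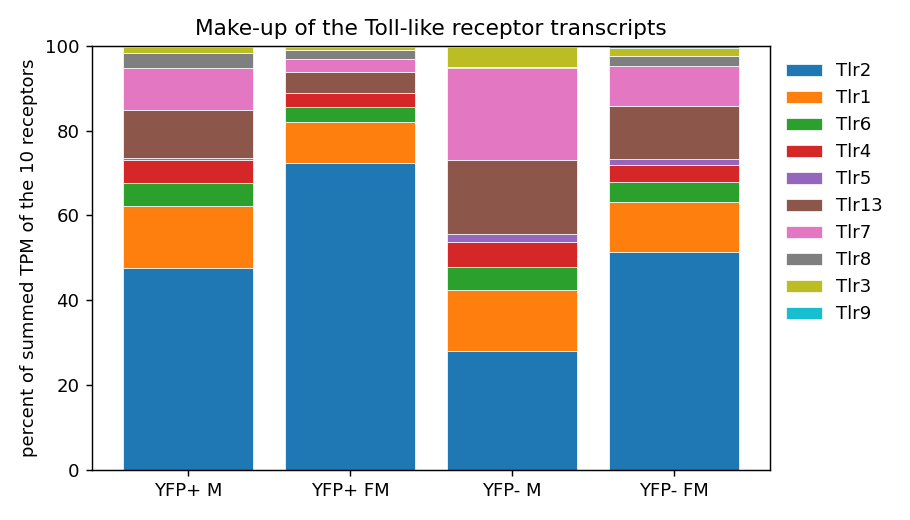
Share of each receptor in the summed TPM of the 10 receptors, in percent, for the YFP+ libraries (left) and the YFP- libraries (right). Tlr2 is the largest block in every library, from 28.1% in YFP- M to 72.5% in YFP+ FM.

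Set against macrophage transcripts, the receptors were sparser in YFP+ libraries. Per 1000 TPM of the 12 pan-macrophage genes there were 3.44 and 0.771 TPM of receptor transcript in the YFP+ M and FM libraries, against 14.04 and 32.3 TPM in the YFP- M and FM libraries. The complement genes C1qa, C1qb and C1qc carry most of that sum. Per 1000 TPM of Csf1r, the growth factor receptor of macrophages, chosen as a second denominator after its values were seen, there were 36.3 and 16.0 TPM of receptor transcript in YFP+ M and FM, against 69.9 and 106 TPM in YFP- M and FM. Both ratios were lower in each YFP+ library than in each YFP- library. Of all tested genes 79.7% were lower in both YFP+ libraries, and no such ratio was computed for them. Neither ratio is thus shown to be particular to the receptors.

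Genes that carry ligands to the receptors did not move as one. Of 7 co-receptor and ligand delivery genes 1 rose and 3 fell, where 39.5% of all tested genes were called lower and 0.522% higher. Cd14, which hands lipopolysaccharide to Tlr4, was at 2888 and 2767 TPM in the YFP+ M and FM libraries, against 474 and 1203 TPM in the YFP- M and FM libraries (log2 difference 1.90, SE 0.70, limma adjusted p = 0.0239). Its direction held under all 3 scalings without a call, with adjusted p of 0.366 after quantile normalization. The TPM of Cd14 was 349 and 1891 times that of Tlr4 in YFP+ M and FM, against 24.3 and 33.3 times in YFP- M and FM. Their ratio within a library was thus higher in each YFP+ library. The value of 1891 rests on Tlr4 at 1.46 TPM in YFP+ FM, with mean coverage of 3.08. The scavenger receptor Cd36 (-2.74, adjusted p = 0.0419), the Tlr4 homologue Cd180 (-3.30, adjusted p = 0.0129) and the Tlr4 accessory protein Tril (-2.38, adjusted p = 0.000248), all by limma, were called lower. Tril passed the filter only through the YFP- libraries (0.161 and 0.053 TPM in YFP+ M and FM, against 4.95 and 4.55 TPM in YFP- M and FM), which fixed its direction. Ly96, the partner of Tlr4 that binds lipopolysaccharide and a gene named after its values were seen, did not pass (-0.99, adjusted p = 0.418) and turned sign under the 3 scalings (0.76 to 1.20). The ratio of Ly96 to Tlr4 was 4.23 and 8.06 in YFP+ M and FM, against 3.50 and 0.70 in YFP- M and FM. A higher ratio to Tlr4 in each YFP+ library was thus not particular to Cd14. No such ratio was computed for all tested genes.

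Most chaperones, proteases and adaptors of the receptors did not pass the test, and neither did most of all tested genes. Limma called 39.5% of all tested genes lower and 0.522% higher. At an unadjusted p under 0.05 these shares were 52.4% lower and 0.718% higher. Of 7 folding and trafficking genes limma called 0 higher and 2 lower (unadjusted p under 0.05 for 0 and 2), the chaperone Hsp90b1 (-1.98, adjusted p = 0.0375) and the ubiquitin ligase Rnf170 (-2.21, adjusted p = 0.0112). Unc93b1, which carries the endosomal receptors out of the endoplasmic reticulum and was named after its values were seen, was at 794 and 712 TPM in YFP+ M and FM, against 395 and 1125 TPM in YFP- M and FM, and did not pass (0.17, adjusted p = 0.849). Of 5 endosomal proteases 0 rose and 1 fell (unadjusted, 0 and 1), Ctsk, which encodes cathepsin K (-1.24, adjusted p = 0.0255). Ctsk was low throughout, at 1.27 TPM in YFP+ M and listed at 0 in YFP+ FM, against 1.71 and 3.68 TPM in YFP- M and FM. Relative to the median gene its difference was 0.49. Of 5 tested adaptors limma called 0 in either direction, also at an unadjusted p under 0.05. Among them Myd88, the adaptor of most Toll-like receptors, named after its values were seen, was at 114 and 48.3 TPM in YFP+ M and FM, against 112 and 282 TPM in YFP- M and FM. The median difference of the adaptors, -1.25, lay above that of all tested genes.

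At an unadjusted p under 0.05, 11 of 16 signalling kinases and ubiquitin ligases were lower and 0 higher. Of all tested genes 52.4% were lower and 0.718% higher at that threshold. After adjustment 8 of the 16 fell and 0 rose, against a background of 39.5% lower. Led by the smallest adjusted p, they were Tab3, a partner of the kinase Tak1 (-1.66, adjusted p = 0.000852), the IκB kinase subunit Chuk (-3.34, adjusted p = 0.0160), Tab2 (-2.85, adjusted p = 0.0252) and the kinase Tbk1 (-2.96, adjusted p = 0.0264), all by limma. Tab3 passed the filter only through the YFP- libraries (0.301 and 0.041 TPM in YFP+ M and FM, against 2.81 and 2.54 TPM in YFP- M and FM), which fixed its direction. Of 9 transcription factors 1 rose and 0 fell (unadjusted, 1 and 2). This was Irf7, which drives type I interferon genes downstream of Tlr7 and Tlr9, at 1197 and 1522 TPM in the YFP+ M and FM libraries, against 147 and 499 TPM in the YFP- M and FM libraries (2.31, SE 0.78, limma adjusted p = 0.0141). Irf7 was called under median-ratio scaling too (adjusted p = 0.0128) and lost the call after quantile normalization (0.123) and loess (0.167). Of 11 inhibitors 1 rose and 5 fell, against a background of 0.522% higher and 39.5% lower. Nfkbia, the NF-κB inhibitor IκBα, was at 3906 and 5835 TPM in YFP+ M and FM, against 1065 and 1169 TPM in YFP- M and FM (2.10, SE 0.66, limma adjusted p = 0.00894, with no call under any of the 3 scalings, adjusted p = 0.224 after quantile normalization). The interleukin-33 receptor Il1rl1 (-1.13, adjusted p = 0.000934), the adaptor-binding protein Tollip (-3.04, adjusted p = 0.0215) and the deubiquitinase Cyld (-2.62, adjusted p = 0.0245) were called lower by limma. The direction of Il1rl1 was fixed by the filter too, since it was at 0.055 TPM in YFP+ M and listed at 0 in YFP+ FM, against 1.26 and 1.24 TPM in YFP- M and FM.

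Over all 62 tested pathway genes beside the 10 receptors 3 rose and 20 fell, or 23 called where 40.0% of all tested genes were called. Their median difference was -1.46 against -1.73 for all tested genes. Limma called 0 of them after quantile normalization and 0 after cyclic loess, where an unadjusted p under 0.05 was reached by 10 and 11, and 5 higher and 1 lower after median-ratio scaling. The unadjusted shares of all tested genes were 10.5% lower and 10% higher after quantile normalization, and 8.77% lower and 10.8% higher after loess. After median-ratio scaling limma called 5.62% of all tested genes higher and 5.9% lower. Of the 2 mouse Toll-like receptors outside the family list above, Tlr11 was called lower (-1.40, limma adjusted p = 0.0379), at 1.27 and 0.29 TPM in YFP+ M and FM, against 1.39 and 7.53 TPM in YFP- M and FM. Tlr12, which with Tlr11 reads protozoan profilin, was at 10.6 and 7.44 TPM in YFP+ M and FM, against 4.37 and 16.3 TPM in YFP- M and FM (0.04, adjusted p = 0.979). It was called higher under median-ratio scaling (adjusted p = 0.0317).

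**Figure D5:**
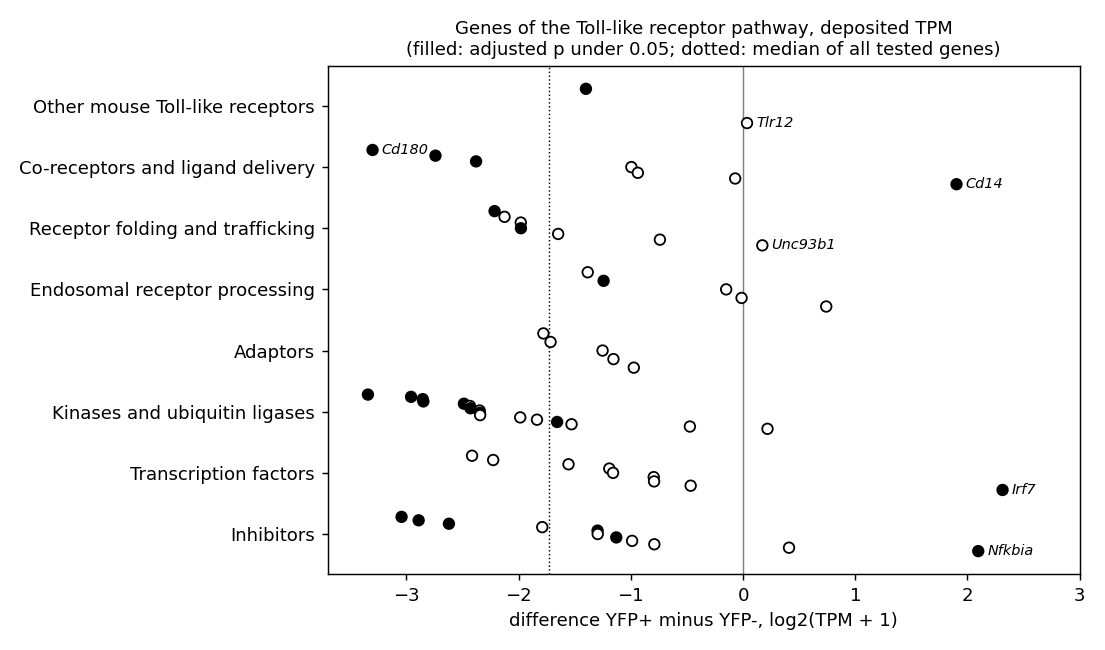
Difference YFP+ minus YFP- in log2(TPM + 1) on the deposited values for 62 tested genes of the Toll-like receptor pathway by role; filled points had an adjusted p under 0.05 and the dotted line is the median of all tested genes (-1.73). Cd14, Irf7 and Nfkbia are the 3 called genes to the right of 0.

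Promoter sequence was set beside the levels for the receptors with an entry in RefSeq's GRCm38.p6 table, 8 of 10; Tlr4 and Tlr7 were not matched. The 250 bases upstream of the start nearest the files' own gene start were searched on both strands for the TATA word (TATAAA), for the Ets core that the macrophage factor PU.1 binds (GAGGAA), for an AP-1 word (TGANTCA) and for the kB and ISRE motifs. A kB motif was found for Tlr2 and Tlr3 and in 7.28% of 32536 such windows of all genes. GAGGAA was found for Tlr8, Tlr9 and Tlr13 (23.4% of windows), TATAAA for Tlr6 and Tlr8 (12.3%), TGANTCA for Tlr9 (6.73%) and ISRE for 0 of 8 (2.98%). A match is a description of these letters and no site of binding. Shown are the most abundant receptor, Tlr2, and Tlr3, which hold the kB motif, Tlr13, which holds GAGGAA, and Tlr8, whose groups overlapped, with motif matches in capitals. In Tlr2 the capitals hold a pair of overlapping kB matches 1 base apart, and in Tlr8 a TATAAA match on each strand overlap in the first capital run and the second is GAGGAA on the other strand. The windows are chr3:83841609-83841858, minus strand, for Tlr2, chr8:45410381-45410630, minus strand, for Tlr3, chrX:106143025-106143274, plus strand, for Tlr13 and chrX:167264330-167264579, minus strand, for Tlr8. The RefSeq start lies 541 bases from the files' gene start for Tlr8 and 159 bases for Tlr3, whose window lies partly inside the files' gene.
Tlr2: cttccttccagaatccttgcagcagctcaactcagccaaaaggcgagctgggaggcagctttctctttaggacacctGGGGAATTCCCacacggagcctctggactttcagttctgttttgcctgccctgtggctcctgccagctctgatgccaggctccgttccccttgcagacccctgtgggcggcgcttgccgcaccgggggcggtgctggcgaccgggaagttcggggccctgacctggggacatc
Tlr3: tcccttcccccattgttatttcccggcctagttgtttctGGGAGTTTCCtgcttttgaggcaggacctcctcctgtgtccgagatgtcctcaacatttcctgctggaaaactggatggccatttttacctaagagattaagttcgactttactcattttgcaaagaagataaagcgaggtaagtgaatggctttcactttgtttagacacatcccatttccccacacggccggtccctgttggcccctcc
Tlr13: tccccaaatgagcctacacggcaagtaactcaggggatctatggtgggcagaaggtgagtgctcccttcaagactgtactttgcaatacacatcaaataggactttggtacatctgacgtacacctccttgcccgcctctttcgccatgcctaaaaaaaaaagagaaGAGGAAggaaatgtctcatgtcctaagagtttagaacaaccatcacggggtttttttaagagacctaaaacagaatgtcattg
Tlr8: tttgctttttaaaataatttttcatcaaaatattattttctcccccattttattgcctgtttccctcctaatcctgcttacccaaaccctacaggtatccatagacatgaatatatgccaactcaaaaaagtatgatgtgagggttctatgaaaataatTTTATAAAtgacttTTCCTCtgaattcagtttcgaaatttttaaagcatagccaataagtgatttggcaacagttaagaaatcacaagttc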

How the data were processed

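Per the file headers, the authors deposited for each of 4 libraries a gene table with mean read coverage, FPKM (a level per transcript length and mapped fragments) and TPM. The submitters' processing notes name HISAT (no version) and GRCm38/mm10; which program wrote the gene tables was not given in these sources. No read counts were used, so depth is known only as coverage, an exact 0 may be a failed estimate, and no counting interval was computed. Libraries were grouped by the genotype label. Rows of 1 gene name were summed (166 of 23337 names, none of them a receptor). Genes reaching 1 TPM in 2 or more libraries entered a limma 3.58.1 fit (R 4.3.3, trend in the prior variance) of log2(TPM + 1), and p-values were Benjamini-Hochberg adjusted across that whole set, with 0.05 as threshold. The prior degrees of freedom were infinite on the deposited values, so each p rests on the variance trend over all genes. The test was tested on simulated data. These had normal noise around the mean of each gene and no shift shared by a whole library. They therefore do not show how the calls behave under the shift of the median gene seen here. Members and lists were chosen with earlier results of these data known; of 184 list entries 181 had a name in the files, 4 of them through an older symbol. All 10 receptors are named, and of each pathway list the called genes, or the 4 of smallest adjusted p. Alternatives changed the scaling (quantile, median-ratio, cyclic loess), the unit (FPKM), the pseudocount (0.1), the filter (absent, or 5 TPM) or the design (title start as a block, 1 library left out, with the tested genes held fixed or, chosen after seeing the data, filtered anew). Transcripts came from GENCODE M21 (GRCm38) and promoters from RefSeq. Other steps used Python 3.11.15, pandas 2.3.3 and NumPy 2.4.6.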

Additional observations from a re-analysis of the deposited data

Results flagged for a closer look

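Tlr8 had opposite signs in the 2 title starts: its difference YFP+ minus YFP- in log2(TPM + 1) was 1.59 for the M pair and -3.43 for the FM pair. Among the pathway genes named, Tlr12 did the same, with 1.11 for M and -1.03 for FM, and so did Unc93b1, with 1.004 for M and -0.66 for FM. Myd88 was at 0.020 for M and -2.52 for FM, so its M value lay next to 0. None of these differences between the starts was tested, since each start has 1 library per group. Opposite signs were found for 1 of 10 receptors, 16 of 62 tested pathway genes and 13.3% of all tested genes.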

How the results depend on the processing

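The 6 called receptors became 0 under quantile normalization and under cyclic loess, 1 (Tlr5) under median-ratio scaling and 2 (Tlr5 and Tlr9) with the title start as a replicate block. Tlr5 and Tlr9 passed the filter only through the YFP- libraries, which fixed their direction on the deposited values. No other receptor kept its call in these settings. Leaving out libraries gave 0 to 10, with 10 without YFP+ M and, when genes were filtered anew, 0 without YFP- M and 0 without YFP- FM. The 4898 called genes became 3129 with a pseudocount of 0.1, 2959 with a filter at 5 TPM, 353 under quantile normalization, 1412 under median-ratio scaling, 105 under loess, 1749 with the block, 879 to 8318 without a library and, filtered anew, 65 to 8322 (983 without YFP+ FM and 97 without YFP- M). The 23 called pathway genes became 13 with a pseudocount of 0.1, 13 without a filter, 15 with FPKM, 0 under quantile normalization, 6 under median-ratio scaling, 0 under loess, 3 with the block and 1 to 35 without a library (4 without YFP- FM, filtered anew). Tlr2 turned sign under median-ratio scaling (0.19), and Tlr8 under quantile normalization (0.98), median-ratio scaling (0.72), loess (1.15) and without YFP- FM (0.78 with either filter, where leaving out other libraries gave values down to -2.61). For single receptors 91 of the other values kept sign and side of the threshold, 48 lost the call and 9 gained it. The correlation across genes of the deviations within a pair of equal title start was -0.01, so the pairs share a title start and no more is known of them. The cause of these changes was not tested. Coverage limits Tlr5 and Tlr9 most.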

Other observations

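Marker lists of other cells that can express Toll-like receptors were summed in each library, against a background of 79.7% of all tested genes lower in both YFP+ libraries. Of 8 plasmacytoid dendritic cell genes 7 were lower in both YFP+ libraries, with a summed level of 22.0 to 145 TPM in YFP+ and 806 to 1163 TPM in YFP- libraries, and of 8 conventional dendritic cell genes 7, with 28.7 to 86.8 TPM in YFP+ and 186 to 413 TPM in YFP- libraries. The plasmacytoid list holds Siglech, which is also in the microglia list. Siglech, at 753 and 659 TPM in YFP- M and FM, made up most of the plasmacytoid sum there. Of 7 B cell genes 3 were lower in both, with 89.5 to 573 TPM in YFP+ and 664 to 724 TPM in YFP- libraries. Monocyte genes were lower for 6 of 7, with summed levels that overlap (1224 to 2749 TPM in YFP+ and 1111 to 1840 TPM in YFP- libraries). Plac8, the gene not lower in both, made up most of the YFP+ sums. It was at 1046 and 2574 TPM in YFP+ M and FM, against 1094 and 391 TPM in YFP- M and FM. Neutrophil genes were lower for 3 of the 7 measured, also with overlap (1357 to 6751 TPM in YFP+ and 1846 to 3134 TPM in YFP- libraries).

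Sinusoidal endothelium genes were lower for 8 of 10, at 148 to 289 TPM in YFP+ and 1191 to 1385 TPM in YFP- libraries, T and NK cell genes for all 7 measured, at 97.6 to 176 TPM in YFP+ and 411 to 1156 TPM in YFP- libraries, and hepatocyte genes for 3 of 7, at 1660.5 to 2106 TPM in YFP+ and 2782 to 6170 TPM in YFP- libraries. Genes of myelin, astrocytes and neurons were lower for 8 of 9, at 2.10 to 34.3 TPM in YFP+ and 723 to 747 TPM in YFP- libraries, and 7 of the 9 were listed at 0 in YFP+ FM. The myelin gene Mbp, at 626 and 643 TPM in YFP- M and FM, made up most of that sum there. The part of these cells in the receptor levels was not tested.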
